A study of Homo sapiens with 10 samples.

Results

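The primary (azurophil) granule is the first granule type that a developing neutrophil makes, at the promyelocyte stage. The genes described here code for 9 of its proteins: the peroxidase MPO, the serine proteases ELANE, PRTN3 and CTSG, the inactive protease homologue AZU1, the ribonucleases RNASE2 and RNASE3, the lipopolysaccharide-binding protein BPI and lysozyme (LYZ). They were chosen by name, and all 9 were found among the 50868 genes of the count table. Of these genes, 8 had at least 30 reads and RNASE3 had almost none.

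The RNA-seq libraries come from Kasumi-1, an established human myeloid leukemia line that carries the t(8;21) translocation and its AML1-ETO fusion. The cells were transduced by retrovirus with HA-tagged E2-2, HA-tagged E2A or HA-tagged HEB, and control cells received the MIGR1 vector. E2-2, E2A and HEB are E proteins, basic helix-loop-helix factors made from TCF4, TCF3 and TCF12, and E proteins also sit in the AML1-ETO complex. GFP-positive cells were sorted 4 days after infection in every group. The study asked whether these E proteins differ in this leukemia. There is 1 library per group, all from the same line, so no difference has a replicate check and no p-value is given.

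As background, MPO turns hydrogen peroxide and chloride into hypochlorous acid. ELANE, PRTN3 and CTSG are stored active after the protease CTSC has trimmed them, and serglycin (SRGN) holds them in the granule. AZU1 kept the protease fold and lost the activity. RNASE2 and RNASE3 are best known from eosinophil granules. BPI binds endotoxin of gram-negative bacteria, and LYZ cuts bacterial cell walls and is also made in later neutrophils and monocytes. In myeloid progenitors several of these genes are known targets of RUNX1, PU.1, C/EBP factors or MYB. Transcript levels were measured here, not granule proteins, and in bulk RNA fewer cells of a type and less RNA per cell cannot be told apart.

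The libraries held 14816708 to 17673090 counted reads. Each transduced gene was highest in its own library: TCF4 was at 823 CPM (CPM is the read count relative to the scaled library size) in E2-2 and at most 0.256 CPM elsewhere, TCF3 was at 1312 CPM in E2A and at most 254 CPM elsewhere, and TCF12 was at 836 CPM in HEB and at most 168 CPM elsewhere. Genes that mark this line were read in all 4 libraries, with KIT at 626 to 770.1 CPM, CD34 at 129.9 to 253 CPM and RUNX1T1, the ETO partner of the fusion, at 146 to 207 CPM. Folds below are ratios of scaled counts, and the ranges in parentheses are 95% exact intervals for counting error, which leave out differences between cultures. Calls needed a fold of 2 or more in either direction, an interval without 1 and 30 or more reads over both libraries.

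Promoter sequence was on hand for 5 of the genes. These are shown because they set genes that share a pattern (AZU1, PRTN3 and RNASE2) beside RNASE3 and CTSG. RNASE3 is a near-copy of RNASE2 with almost no counted reads, and CTSG has another pattern. Each window runs from 250 bases before to 50 bases after the RefSeq start on GRCh38.p14, 5′ to 3′ on the gene's strand. Capitals mark the E box CANNTG, the motif that E proteins bind, searched on both strands.
AZU1, chr19:827587-827886, plus strand: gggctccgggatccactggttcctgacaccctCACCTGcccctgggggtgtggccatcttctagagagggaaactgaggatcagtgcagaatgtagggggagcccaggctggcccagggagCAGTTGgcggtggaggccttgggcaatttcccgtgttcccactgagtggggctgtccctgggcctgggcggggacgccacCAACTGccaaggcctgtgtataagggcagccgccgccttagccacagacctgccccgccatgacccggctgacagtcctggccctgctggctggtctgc
PRTN3, chr19:840749-841048, plus strand: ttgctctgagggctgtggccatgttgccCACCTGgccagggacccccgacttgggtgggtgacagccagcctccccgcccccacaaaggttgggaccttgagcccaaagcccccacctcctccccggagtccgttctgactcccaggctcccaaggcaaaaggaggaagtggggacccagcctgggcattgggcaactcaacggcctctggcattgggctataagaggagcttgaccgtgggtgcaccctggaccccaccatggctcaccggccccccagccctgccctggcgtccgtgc
CTSG, chr14:24576201-24576500, minus strand: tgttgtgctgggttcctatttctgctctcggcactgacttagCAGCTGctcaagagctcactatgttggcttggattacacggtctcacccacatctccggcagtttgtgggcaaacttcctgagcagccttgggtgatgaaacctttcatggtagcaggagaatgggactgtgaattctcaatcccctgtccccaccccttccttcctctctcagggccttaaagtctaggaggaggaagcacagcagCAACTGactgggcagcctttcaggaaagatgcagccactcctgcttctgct
RNASE2, chr14:20955237-20955536, plus strand: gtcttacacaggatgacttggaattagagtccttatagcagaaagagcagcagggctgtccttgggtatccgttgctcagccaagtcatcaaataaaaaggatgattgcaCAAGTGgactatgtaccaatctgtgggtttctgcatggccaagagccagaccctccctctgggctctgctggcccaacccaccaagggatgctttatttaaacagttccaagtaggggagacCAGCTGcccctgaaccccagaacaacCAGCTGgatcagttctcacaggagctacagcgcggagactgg
RNASE3, chr14:20891135-20891434, plus strand: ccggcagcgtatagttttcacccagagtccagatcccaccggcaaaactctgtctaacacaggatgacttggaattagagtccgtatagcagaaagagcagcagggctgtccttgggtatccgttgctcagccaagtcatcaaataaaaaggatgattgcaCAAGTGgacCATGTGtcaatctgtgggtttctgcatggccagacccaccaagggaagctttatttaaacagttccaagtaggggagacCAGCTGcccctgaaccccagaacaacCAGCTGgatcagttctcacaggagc

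An E box was present in all 5 windows, and also in 68.7% of all 35116 promoters of this length. AZU1 held 3, PRTN3 1, CTSG 2, RNASE2 3 and RNASE3 4. The form CAGCTG, found in 17.9% of promoters, occurred in RNASE2, RNASE3 and CTSG. The form CAGGTG or its reverse CACCTG, found in 20.6%, occurred at position -218 from the start of AZU1 and at -222 from that of PRTN3. The RUNX core TGTGGT, found in 13.1% of promoters, occurred in none of the 5. The PU.1 core GAGGAA (27.9% of promoters) was found in PRTN3 and CTSG, while the C/EBP pattern TTNNGNAA (36.8%) and the MYB pattern AACNG (77.2%) were found in every window. MYB matches overlapped E boxes in AZU1 and CTSG, and C/EBP matches overlapped an E box in RNASE2 and RNASE3. The RNASE2 and RNASE3 windows paired at 249 bases in a global alignment, with 242 of them identical (97.2%). CAGCTG lay at -18 and 9 in RNASE2 and at -1 and 26 in RNASE3. Counted over all aligned columns, gaps included, RNASE2 and RNASE3 were identical at 68.9% and the other pairs of windows at no more than 50.7%. Over paired bases the other pairs reached up to 66.7%. These matches describe letters only, since binding was not measured in the data used here.

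The 9 genes together took 1.32% of counted reads in E2-2 (1.31 to 1.32, exact binomial), 1.51% in E2A (1.51 to 1.52), 2.12% in HEB (2.11 to 2.13) and 1.76% in vector (1.76 to 1.77). This share of all counted reads was highest in HEB and lowest in E2-2. MPO alone made up 87.6% of those reads in E2-2, 87.1% in E2A, 83.7% in HEB and 83.6% in vector. By reads, MPO ranked 1 of all genes in HEB and 2 in each of the other libraries.

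Levels of different genes are comparable only per length, for which the authors' FPKM values were used. In vector they were 3047 FPKM for MPO, 1376 for PRTN3, 290.4 for ELANE, 272 for AZU1, 37.1 for RNASE2, 3.65 for LYZ, 3.51 for CTSG, 0.484 for BPI and 0.0883 for RNASE3. MPO, PRTN3, ELANE and AZU1 thus stood far above the rest, and CTSG, a protease of the same granule, stood near LYZ. ELANE was above AZU1 in E2-2 (196 against 145 FPKM), E2A (252 against 191) and vector, while in HEB it stood below (264 against 275). These orders depend on the gene lengths behind FPKM. The table's AZU1 gene begins 2740 bases before the RefSeq start, the ELANE gene 1289 bases and the BPI gene 44007 bases. The FPKM values imply a length of 4837 bases for MPO, 1312 for PRTN3, 1418 for ELANE and 2319 for AZU1.

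**Figure D1:**
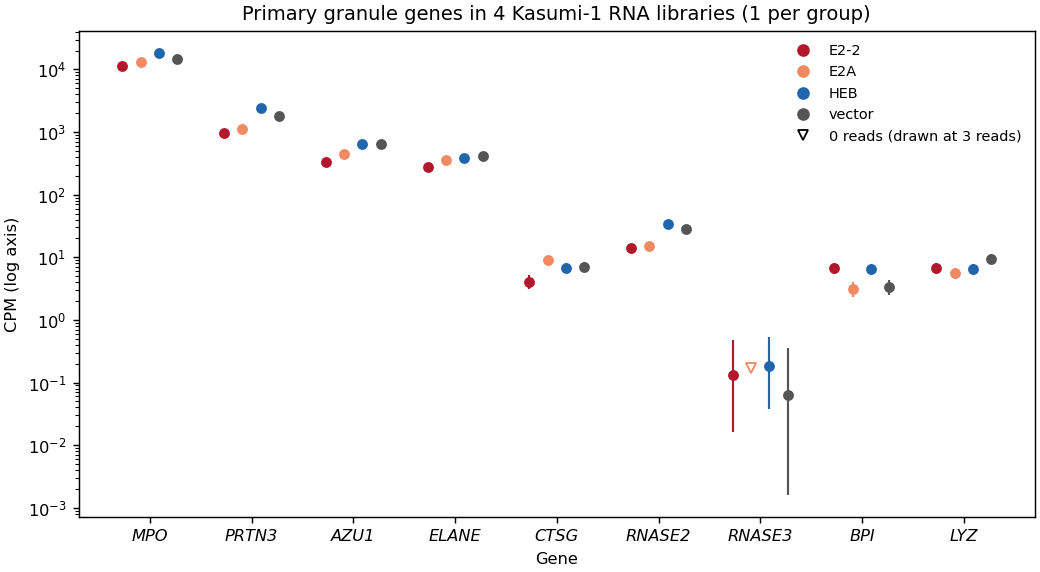
Granule gene levels (CPM, log axis) with a point for each library, E2-2, E2A, HEB and vector from left to right, and lines for 95% Poisson intervals, which the point hides for abundant genes. MPO lies between 11254 and 18014 CPM and RNASE3 under 1 CPM, where the open triangle marks 0 reads in E2A drawn at the level of 3 reads.

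MPO (ENSG00000005381, chromosome 17, 58269856 to 58280935), the peroxidase, was at 11254 CPM in E2-2, 13170.5 CPM in E2A, 18014 CPM in HEB and 14862 CPM in vector. HEB was the only library above vector, and no fold reached 2. The ratio to vector was 0.757 (0.752 to 0.762) for E2-2, 0.886 (0.881 to 0.891) for E2A and 1.21 (1.21 to 1.22) for HEB. The related peroxidase gene LPO ends 1338 bases from MPO. It had 293 reads in E2-2, 639 in E2A and 685 in HEB, against 625 in vector. LPO was called lower in E2-2, at a ratio of 0.482 (0.418 to 0.555), and was not called in E2A (0.903) or HEB (1.03). BZRAP1, 20293 bases off on the other side of MPO, was not called. Its ratio to vector was 0.800 (0.765 to 0.836) in E2-2, 0.824 (0.790 to 0.860) in E2A and 1.17 (1.13 to 1.22) in HEB.

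The genes of AZU1, PRTN3 and ELANE lie side by side on chromosome 19. PRTN3 (ENSG00000196415, 840960 to 848175), the protease known as proteinase 3, was at 963 CPM in E2-2, 1126 CPM in E2A, 2422 CPM in HEB and 1820.05 CPM in vector. E2-2 and E2A both lay well under vector and HEB above it. Its ratio to vector was 0.529 (0.519 to 0.540) in E2-2, 0.619 (0.607 to 0.630) in E2A and 1.33 (1.31 to 1.35) in HEB, none of them called. AZU1 (ENSG00000172232, 825097 to 832018), the inactive homologue, was at 329 CPM in E2-2, 443 CPM in E2A, 647 CPM in HEB and 636 CPM in vector. HEB and vector did not differ beyond counting error for AZU1, with a ratio of 1.02 (0.991 to 1.05), while E2-2 stood at 0.518 (0.500 to 0.536) and E2A at 0.697 (0.677 to 0.718). ELANE (ENSG00000197561, 851014 to 856247), neutrophil elastase, was at 272 CPM in E2-2, 357 CPM in E2A, 379.9 CPM in HEB and 415 CPM in vector. For elastase all 3 E protein libraries lay below vector, at ratios of 0.655 (0.630 to 0.681) in E2-2, 0.860 (0.830 to 0.890) in E2A and 0.915 (0.883 to 0.947) in HEB.

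The neighbours in this cluster therefore did not keep one proportion. Per read of ELANE there were 3.54 (3.42 to 3.66) reads of PRTN3 in E2-2, 3.15 (3.07 to 3.24) in E2A, 6.38 (6.21 to 6.55) in HEB and 4.38 (4.27 to 4.50) in vector. This ratio needs no scaling between libraries. It was highest in HEB, where PRTN3 was above vector and ELANE was not. PRTN3 reads per AZU1 read were 2.93 (2.83 to 3.02) in E2-2 and 2.86 (2.80 to 2.93) in vector, with intervals that overlap, against 2.54 (2.47 to 2.61) in E2A and 3.74 (3.66 to 3.82) in HEB.

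The genes that flank the cluster differed from each other. PLPPR3, which ends 3120 bases before AZU1, had 1120 reads in E2-2, 1956 in E2A and 2973 in HEB, against 2543 in vector. It was called lower in E2-2, with a ratio of 0.453 (0.422 to 0.486), and stood at 0.679 in E2A and 1.10 in HEB. CFD, the gene of the complement protease factor D, begins 3396 bases after ELANE and had 884 reads in E2-2, 860 in E2A and 632 in HEB, against 330 in vector. It was called higher in E2-2 at 2.76-fold (2.43 to 3.14) and in E2A at 2.30-fold (2.02 to 2.62), and stood at 1.81 (1.58 to 2.07) in HEB. PLPPR3 thus lay on the same side of vector as AZU1 and PRTN3 in E2-2, and CFD on the other side.

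**Figure D2:**
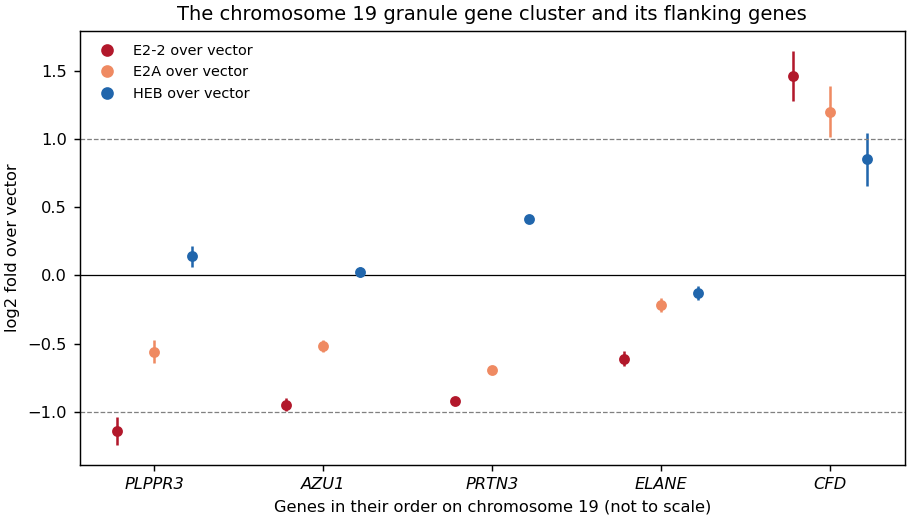
Log2 fold over vector of the chromosome 19 granule genes and their flanking genes in genome order, with 95% counting intervals and dashed lines at 2-fold. PLPPR3, AZU1, PRTN3 and ELANE lie below 0 in E2-2 and E2A, whereas CFD lies above 0 in E2-2, E2A and HEB.

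CTSG (ENSG00000100448, chromosome 14, 24573522 to 24576260), the cathepsin G gene, had 62 reads in E2-2, 161 in E2A, 112 in HEB and 110 in vector. It was the only one of the 8 measured genes whose highest library was E2A. The ratio to vector was 0.580 (0.418 to 0.799) in E2-2, 1.29 (1.01 to 1.66) in E2A and 0.960 (0.731 to 1.26) in HEB, none called. The granzyme and chymase genes GZMB, GZMH and CMA1, its relatives in the same protease family, had at most 2 reads in any library.

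The ribonuclease genes RNASE2 and RNASE3, whose promoters are printed above, were read at very different depths. RNASE2 (ENSG00000169385, chromosome 14, 20955452 to 20956436) had 213 reads in E2-2, 269 in E2A, 565 in HEB and 440 in vector. RNASE3 (ENSG00000169397, chromosome 14, 20891399 to 20892348) had 2 reads in E2-2, 0 in E2A, 3 in HEB and 1 in vector, so no fold is given. A count of 0 in E2A allows up to 3 reads, or 0.170 CPM. There were 440 (78.6 to 17418) RNASE2 reads per RNASE3 read in vector. The coding sequences of the pair are close, and how the counting treated reads that match both is not given in the sources used here.

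RNASE2 was called lower in E2-2 than in vector, 2.01-fold (1.70 to 2.38). This call rests on the threshold: with DESeq2 size factors, library totals, scaling over only those 2 libraries or the authors' FPKM the log2 fold was -0.99, -0.96, -0.99 and -0.96, and the gene was not called. In E2A its ratio to vector was 0.540 (0.462 to 0.630), and in HEB it was 1.21 (1.07 to 1.37). Defining eosinophil genes had few reads beside it and none was called. The eosinophil peroxidase gene EPX had 8 reads in E2-2, 16 in E2A, 8 in HEB and 14 in vector, and CLC had 3, 6, 2 and 6. The granule protein genes PRG2, with 16 reads in E2-2, 19 in E2A and 2 in HEB, against 0 in vector, and PRG3, with 12, 2 and 5, against 0, were higher in E2-2 than in vector by count but under the 30-read minimum. The 7 eosinophil genes summed to 3.23 CPM in E2-2, 3.85 CPM in E2A and 1.27 CPM in HEB, against 1.80 CPM in vector, and their part in the level of RNASE2 was not tested.

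BPI (ENSG00000101425, chromosome 20, 38260149 to 38337505) was the only granule gene called higher in E2-2 than in vector. It had 102 reads in E2-2, 55 in E2A, 106 in HEB and 52 in vector. E2-2 and HEB formed the high pair and E2A and vector the low pair. The fold over vector was 2.02 (1.43 to 2.87) in E2-2, which was called, 0.934 (0.627 to 1.39) in E2A and 1.92 (1.37 to 2.73) in HEB, which was just under the threshold. On log2(FPKM + 0.1) the E2-2 difference was 0.92 and the call was lost. The table's BPI gene begins 44007 bases before the RefSeq start, and its FPKM values imply a length of 6827 bases. Where in this gene the reads fall is not known here. It overlaps KIAA1755 and CTD-2308N23.2, which held 11 and 6 reads over the 4 libraries. TGM2, the transglutaminase gene 93571 bases before BPI, had 185 reads in E2-2, 44 in E2A and 82 in HEB, against 12 in vector, and was called higher in E2-2 at 15.9-fold (8.86 to 31.2), in E2A at 3.24-fold and in HEB at 6.44-fold. RP4-564F22.5, 68506 bases after BPI, had 14 reads in E2-2, 18 in E2A and 30 in HEB, against 21 in vector. It was not called. The nearest measured neighbours of CTSG, RNASE2, RNASE3 and LYZ had no call against vector. Some of them are far off, as their distances run from 5469 bases (YEATS4, after LYZ) to 5982863 bases (G2E3, after CTSG).

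LYZ (ENSG00000090382, chromosome 12, 69348341 to 69354234) had 101 reads in E2-2, 98 in E2A, 107 in HEB and 149 in vector. Vector was the highest library for this gene, and the E protein libraries overlapped each other within counting error. The ratio to vector was 0.697 (0.536 to 0.904) in E2-2, 0.581 (0.445 to 0.754) in E2A and 0.677 (0.523 to 0.874) in HEB, none called. Of 3 measured monocyte genes, 2 were called higher in each E protein library, beside 8.45% of all genes in E2-2, 4.89% in E2A and 2.55% in HEB: CSF1R had 646 reads in E2-2, 191 in E2A and 113 in HEB, against 23 in vector, and S100A8 145, 39 and 38, against 0. CD14 had 1 read in E2-2, 2 in E2A and 2 in HEB, against 3 in vector. The 7 monocyte genes summed to 143 CPM in E2-2, 75.8 CPM in E2A and 67.4 CPM in HEB, against 61.2 CPM in vector, mostly from S100A9. Their part in the levels of LYZ and BPI was not tested.

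Set against vector as a group, 1 of 8 measured granule genes was called higher and 1 lower in E2-2, where 8.45% and 3.55% of 13884 genes were called higher and lower. In E2A 0 of 8 were called, beside 4.89% higher and 1.58% lower over 13901 genes, and in HEB 0 of 8 were called, beside 2.55% higher and 1.23% lower over 13695 genes. With 8 genes 1 call is the smallest count above 0, so these counts lie near the background. At a 1.5-fold threshold, BPI was higher and PRTN3, AZU1, ELANE, CTSG and RNASE2 were lower in E2-2, 1 and 5 of 8 genes, beside 13.5% and 9.43% of all genes. In E2A, PRTN3, RNASE2 and LYZ were lower, 0 higher and 3 lower of 8, beside 8.41% and 5.01%. In HEB, BPI was higher, 1 and 0 of 8, beside 4.8% and 3.73%. In E2-2, 7 of 8 intervals lay wholly below 1, beside 30.8% of all genes, and 1 above, beside 27.3%, and the median log2 fold was -0.70, beside -0.03 over all genes. In E2A 6 of 8 intervals lay below 1, beside 24.2% of genes, and 1 above, beside 22.7%, and the median was -0.37, beside -0.01. In HEB 2 of 8 lay below 1 (16.9% of genes) and 4 above (21.1% of genes), and the median was 0.15, beside 0.01. All 3 comparisons share the vector library.

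**Figure D3:**
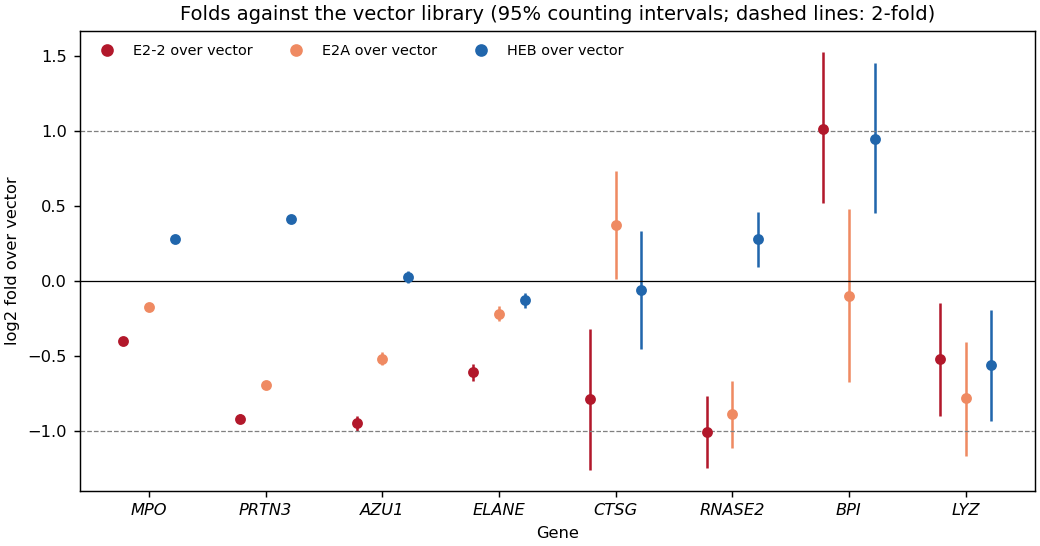
Log2 fold over vector of the 8 measured granule genes with 95% counting intervals, E2-2, E2A and HEB from left to right for each gene, and dashed lines at 2-fold. In E2-2 every gene but BPI lies between -1.01 and -0.40, while in HEB the intervals of MPO, PRTN3, RNASE2 and BPI lie above 0.

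**Figure D4:**
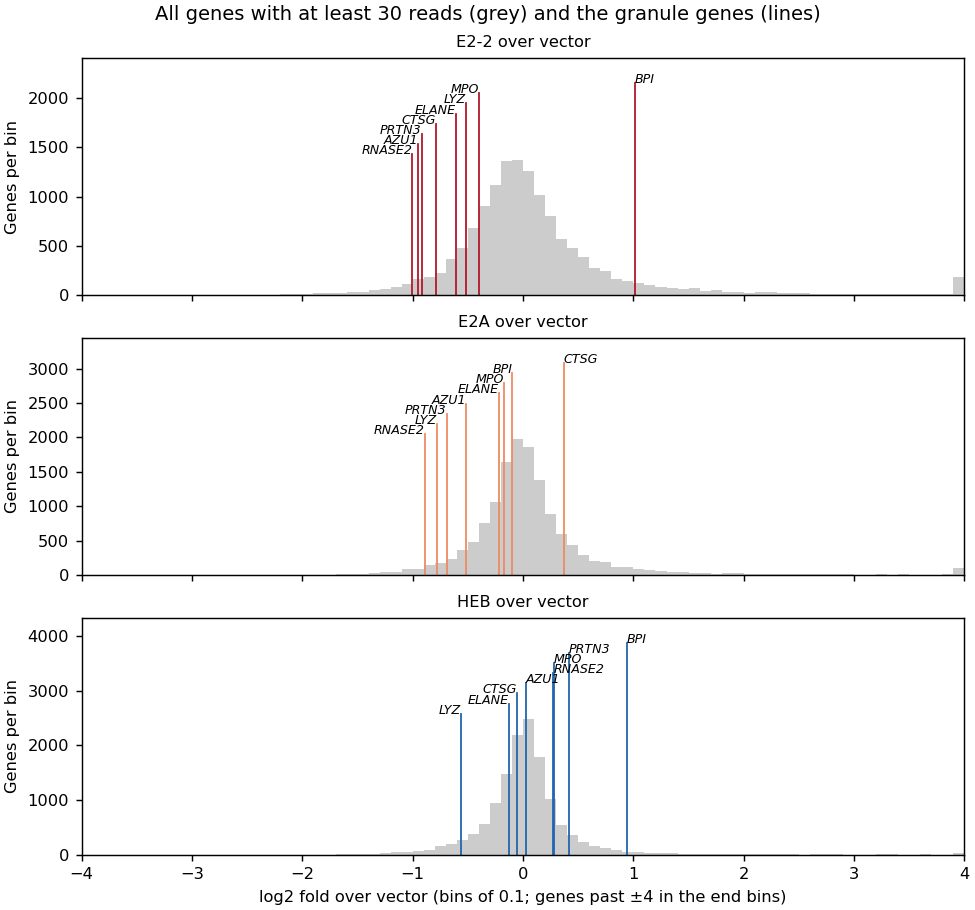
Number of genes per 0.1 bin of log2 fold over vector among all genes with at least 30 reads (grey), with a line for each granule gene, in panels for E2-2, E2A and HEB. In E2-2, 7 of the 8 lines stand left of 0, and in HEB the lines stand on both sides of it.

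Direct comparison of the E protein libraries leaves vector out. In the comparison of E2-2 with HEB, PRTN3 was 2.52-fold (2.47 to 2.56) and RNASE2 2.43-fold (2.07 to 2.86) lower in E2-2. These 2 of 8 genes were called lower and 0 higher, beside 1.57% and 6.09% of 13891 genes. At 1.5-fold 5 were lower and 0 higher, beside 6.03% and 10.7%. AZU1 stood at 0.508 (0.492 to 0.526), CTSG at 0.604 (0.436 to 0.831), MPO at 0.625 (0.621 to 0.628) and ELANE at 0.716 (0.688 to 0.745), while LYZ at 1.03 and BPI at 1.05 had intervals holding 1.

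In the comparison of E2A with HEB, PRTN3 was 2.15-fold (2.11 to 2.19), RNASE2 2.24-fold (1.94 to 2.60) and BPI 2.06-fold (1.47 to 2.90) lower in E2A. These 3 of 8 were called lower and 0 higher, beside 0.696% and 2.38% of 13944 genes. On log2(FPKM + 0.1) the BPI difference was -0.88, its call was lost and 2 remained. The E2A to HEB ratio was 0.731 (0.727 to 0.735) for MPO, 0.685 (0.665 to 0.705) for AZU1 and 0.940 (0.907 to 0.973) for ELANE, and CTSG at 1.35 (1.05 to 1.73) was on the other side.

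In the comparison of E2-2 with E2A, CTSG was 2.23-fold (1.65 to 3.04) lower and BPI 2.16-fold (1.54 to 3.06) higher in E2-2. These were 1 lower and 1 higher call of 8 genes, beside 1.61% and 3.63% of 14066 genes. The BPI call was lost on log2(FPKM + 0.1). The abundant genes lay closer together: the E2-2 to E2A ratio was 0.854 (0.849 to 0.860) for MPO, 0.855 (0.837 to 0.874) for PRTN3, 0.762 (0.732 to 0.793) for ELANE and 0.743 (0.717 to 0.770) for AZU1. RNASE2, at 0.923 (0.767 to 1.11), did not differ beyond counting error.

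Across the libraries, MPO, PRTN3, AZU1 and RNASE2 held one order, E2-2 lowest, then E2A, vector and HEB. Within it the E2-2 and E2A levels of RNASE2 and the vector and HEB levels of AZU1 did not differ beyond counting error. ELANE differed in having vector above HEB. Likeness of pattern was measured as the Euclidean distance over the 3 log2 folds against vector, for the called genes RNASE2 and BPI. Among 9869 protein-coding genes with at least 200 reads, the nearest to RNASE2 were SESN2 (0.16), ADM5 (0.21) and PRTN3 (0.26), itself a granule gene. The nearest to BPI were NLRP3 (0.28), TUBB4A (0.35) and PCDHGA10 (0.40). These distances rest on 4 libraries and share the vector library.

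Other genes of the same granule and its machinery were read from lists, whose counts of calls are to be set beside the shares of all genes given above (8.45% higher and 3.55% lower in E2-2, for example). PRSS57, the fourth neutrophil serine protease, was at 161 CPM in E2-2, 223 CPM in E2A, 253 CPM in HEB and 313 CPM in vector. Its ratio to vector was 0.515 (0.491 to 0.541) in E2-2, 0.713 (0.683 to 0.744) in E2A and 0.807 (0.775 to 0.842) in HEB, with no call. The alpha defensin genes DEFA1, DEFA1B, DEFA3 and DEFA4, late products of this granule, were at 0 reads in E2-2, E2A, HEB and vector, where a count of 0 leaves room for 3 reads, or 0.170 to 0.198 CPM. DEFA1, DEFA1B and DEFA3 are near-identical copies, and reads shared among them may have gone uncounted. Of 13 measured genes in a list of these proteins and lysosomal hydrolases found in the granule, 1 was called higher and 0 lower in E2-2, and 0 in E2A and HEB. The called gene was the fucosidase gene FUCA1, with 359 reads in E2-2 against 168 in vector, an interval of the fold of 1.82 to 2.66. The list's median log2 fold was -0.28 in E2-2, -0.38 in E2A and -0.14 in HEB.

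Genes that trim, fold, sort or hold the granule proteins had no call in any comparison with vector, with all 16 measured. CTSC, which activates the proteases, was at 199 CPM in E2-2, 246 CPM in E2A, 299 CPM in HEB and 301 CPM in vector. SRGN was at 25.1 CPM in E2-2, 20.9 CPM in E2A, 24.8 CPM in HEB and 39.5 CPM in vector. CALR, a chaperone of MPO, was at 2081 CPM in E2-2, 2473 CPM in E2A, 3345 CPM in HEB and 2839 CPM in vector, the same order as MPO. The list medians were -0.06, -0.09 and 0.04 in E2-2, E2A and HEB.

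Of the inhibitors of the granule proteases, SERPINB1 and SERPINA1 were called lower in E2-2. SERPINB6 also lay below vector there, at a ratio of 0.639 (0.599 to 0.682), without a call. SERPINB1, the intracellular inhibitor of elastase, proteinase 3 and cathepsin G, had 5206 reads in E2-2, 10068 in E2A, 10942 in HEB and 13521 in vector. It was called lower in E2-2 at a ratio of 0.396 (0.383 to 0.409), and stood at 0.657 (0.641 to 0.675) in E2A and 0.763 (0.744 to 0.782) in HEB. SERPINA1, the secreted elastase inhibitor, had 256 reads in E2-2, 811 in E2A, 879 in HEB and 1480 in vector. It was called lower in E2-2 (0.178, 0.155 to 0.203) and E2A (0.484, 0.443 to 0.527), and stood at 0.560 (0.514 to 0.609) in HEB. In all, 2 of 4 measured inhibitors were called lower in E2-2, 1 in E2A and 0 in HEB, and none was called higher. Of all genes, 3.55%, 1.58% and 1.23% were called lower in E2-2, E2A and HEB. The list's median log2 fold was -0.99 in E2-2, -0.46 in E2A and -0.24 in HEB.

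The NADPH oxidase supplies the hydrogen peroxide that MPO uses. Of its measured subunit genes, 3 of 5 were called higher in E2-2, 3 of 5 in E2A and 1 of 4 in HEB, beside 8.45%, 4.89% and 2.55% of all genes. None was called lower. The uncalled genes CYBA and NCF4 also lay above vector in E2-2, at ratios of 1.48 and 1.31. Their intervals lay above 1 in both E2-2 and E2A. In HEB the uncalled genes RAC2 (1.94) and CYBA (1.11) had intervals above 1, and NCF4 (0.891) had an interval below 1. The median log2 folds were 2.16 in E2-2, 1.51 in E2A and 0.55 in HEB. CYBB, the catalytic subunit gene, had 187 reads in E2-2, 42 in E2A and 15 in HEB, against 13 in vector. CYBB was called higher in E2-2 (14.8-fold, 8.44 to 28.3) and E2A (2.85-fold). RAC2, a GTPase of the complex, was called higher at 4.46 (4.05 to 4.91) times vector in E2-2 and 3.23 (2.93 to 3.56) times in E2A. NCF1 was called higher in E2-2 (14.4, 12.4 to 17.0), E2A (6.30, 5.36 to 7.44) and HEB (4.42, 3.74 to 5.25), and it has near-identical pseudogenes that can share reads.

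Transcription factors known to act on granule genes were mostly within 2-fold. SPI1, the PU.1 gene, was called higher in E2-2 at 2.01 (1.89 to 2.14) times vector, a fold at the threshold. SPI1 also lay above vector, without a call, in E2A (1.63, 1.53 to 1.74) and HEB (1.45, 1.36 to 1.55). IRF8, which drives monocyte development, had 56 reads in E2-2, 39 in E2A and 13 in HEB, against 5 in vector, and was called higher in E2-2 and E2A. EGR1 was called higher in E2-2 (2.16, 1.68 to 2.79) and E2A (2.36, 1.85 to 3.02). Of 15 measured factors 3 were called higher in E2-2 and 2 in E2A, and 0 of 14 in HEB, with none lower. Of all genes, 8.45%, 4.89% and 2.55% were called higher in E2-2, E2A and HEB. GFI1, a repressor required for neutrophil development, was at 392 CPM in E2-2, 499 CPM in E2A, 523 CPM in HEB and 605 CPM in vector. RUNX1 was at 419 CPM in E2-2, 512 CPM in E2A, 559 CPM in HEB and 619 CPM in vector, and its reads cannot be split here between RUNX1 and the fusion. CEBPA, which is needed for entry into the granulocyte line, had 92 reads in E2-2, 124 in E2A, 118 in HEB and 95 in vector. CEBPE, another C/EBP gene of the list, had 2125 reads in E2-2, 2226 in E2A, 2690 in HEB and 1681 in vector. Its ratio to vector was 1.30 (1.22 to 1.39) in E2-2, 1.17 (1.10 to 1.25) in E2A and 1.51 (1.42 to 1.60) in HEB, none called. MYB was at 534 CPM in E2-2, 519.7 CPM in E2A, 554 CPM in HEB and 521 CPM in vector.

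Most genes of the later granules were near 0. The specific granule genes LTF, LCN2, MMP8 and CEACAM8 had at most 4 reads in any library, and CAMP had 9 reads in E2-2, 2 in E2A, 1 in HEB and 0 in vector. OLFM4, another specific granule gene, had 16 reads in E2-2, 16 in E2A and 25 in HEB, against 2 in vector. Its ratio to vector was 8.23 (1.93 to 73.8) in E2-2, 7.06 (1.66 to 63.3) in E2A and 11.8 (2.94 to 103) in HEB. OLFM4 was under the read minimum in each comparison and was not called. Of 15 specific and gelatinase granule genes, 2 were measured in E2-2 and 1 each in E2A and HEB. The 15 genes summed to 16.0 CPM in E2-2, 9.45 CPM in E2A and 13.3 CPM in HEB, against 14.4 CPM in vector, mostly from ADAM8, which was not called. CHI3L1 was called higher in E2-2, with 31 reads against 4 in vector, a fold of 7.97 (2.82 to 31.1). CSF3R, the granulocyte colony-stimulating factor receptor gene, was at 1285 CPM in E2-2, 1346 CPM in E2A, 1184.5 CPM in HEB and 932 CPM in vector, with no call.

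**Figure D5:**
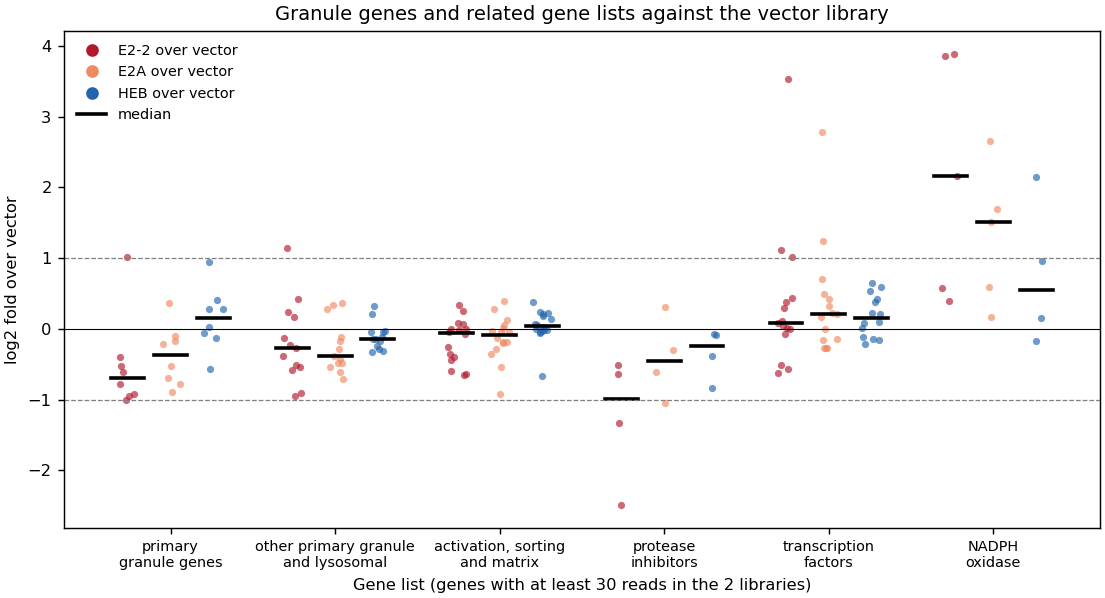
Log2 fold over vector of each measured gene (points) in the primary granule genes and 5 related lists, with black bars for medians, E2-2, E2A and HEB from left to right in each list and dashed lines at 2-fold. Medians of the granule genes (-0.70) and the protease inhibitors (-0.99) lie below 0 in E2-2, and that of the NADPH oxidase genes (2.16) above 0.

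Lymphocyte genes and genes of epithelial or packaging cells were read as markers of other cells. The 4 lymphocyte genes summed to 0.725 CPM in E2-2, 1.70 CPM in E2A and 1.93 CPM in HEB, against 3.59 CPM in vector. CD3D, with 2 reads in E2-2, 10 in E2A and 15 in HEB, against 34 in vector, was called lower in E2-2, E2A and HEB. The 4 epithelial or packaging cell genes summed to 42.9 CPM in E2-2, 49.5 CPM in E2A and 42.5 CPM in HEB, against 57.5 CPM in vector, nearly all from EPCAM, with none called. Their part in the granule gene levels was not tested.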

How the data were processed

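RNA-seq of 4 Kasumi-1 libraries was used, 1 per group. The HA ChIP-seq libraries and inputs were not analysed here. The authors deposited whole-number read counts per Ensembl gene and FPKM values, per the file headers. The submitters' processing notes name TopHat2 2.0.9 and HTSeq 0.9.1 and the builds hg38 and hg19, without roles. The sources used here do not give annotation, gene lengths or strand setting. Gene positions are the table's, and all 9 Ensembl IDs matched their symbols in a reference table of GRCh38.p14.

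Counts were scaled with edgeR 4.0.16 TMM (R 4.3.3) over the 4 libraries. Folds have 95% exact conditional binomial (Clopper-Pearson) intervals, computed over all genes in Python 3.11.15 with scipy 1.17.1. The rule was tried on simulated Poisson counts. These hold no differences between cultures, so they cannot show how calls behave under such differences. Intervals cover counting error only, since there is 1 library per group. No molecular identifiers are stated, so copies of one molecule may count as separate reads, which the intervals leave out. Members and lists were chosen with earlier results of these data known. Results for 1 list gene are not reported here, and it enters no list count. Named beside the 9 genes are up to 4 called genes per list, nearest measured flanking genes, defining markers, and, after their values were seen, uncalled list genes with a known role. Where one library had 0 reads, 3 were used, giving a bound. Promoters are from RefSeq, aligned with Biopython 1.88. Alternatives were DESeq2 1.42.0 size factors, library totals, other read minimums, a 1.5-fold threshold and log2(FPKM + 0.1).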

Additional observations from a re-analysis of the deposited data

How the results depend on the processing

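With 1 library per group no replicate could be left out. No paired analysis was possible because each group has a single library. Differences between cultures are not measured, and at the depth of RNASE3 (0 to 3 reads) no fold can be read. For E2-2 against vector, where 2 genes were called, 1 was called with DESeq2 size factors, 1 with library totals, 1 with TMM over those 2 libraries, 0 from FPKM and 6 at a 1.5-fold threshold. The lost call was RNASE2, whose fold lies at the threshold, and from FPKM also BPI, whose low values the pseudocount of 0.1 draws together. At 1.5-fold, E2A against vector gave 3 called genes in place of 0, HEB against vector 1 in place of 0 and E2-2 against HEB 5 in place of 2, as that rule admits smaller folds. From FPKM, E2-2 against E2A gave 1 in place of 2 and E2A against HEB 2 in place of 3, and in both BPI was lost. No granule gene changed direction under any of these settings. In the gene lists, 15 of 66 measured genes were called in E2-2, 10 of 66 in E2A and 4 of 63 in HEB. Of these, 11, 8 and 3 were higher and 4, 2 and 1 lower. Over all genes 8.45% were called higher and 3.55% lower in E2-2, 4.89% and 1.58% in E2A, and 2.55% and 1.23% in HEB. Without a read minimum 19, 12 and 6 list genes were called. The scalings moved the median of all genes by less than 0.1 on the log2 scale.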
